A study of Mus musculus with 4 samples.

Results

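The 41 genes described here encode kinases, cyclins, kinetochore proteins, spindle proteins and cytokinesis factors of mitosis. They were taken by symbol from a list of 41 members, and all 41 had a row in a table of 27542 genes and transcribed loci. Expression was measured by RNA sequencing in TBV2, a line of mouse embryonic stem (ES) cells, grown in serum with LIF. One group was a non-targeting control (NT, labelled N.T.) of 1 library. The other was a knockdown (KD) of the long noncoding RNA T-UCstem1 and was 3 separate clones. The series design adds feeder cells and high density as culture conditions, and the sources used here do not give the means of knockdown. The authors combined the 3 clones into 1 FPKM for each gene, that is, fragments over transcript length and sequencing depth, so each condition has 1 value and no SD, standard error or n accompanies any FPKM.

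Cells enter mitosis when cyclin B activates the kinase CDK1. Chromosomes then condense, kinetochores attach them to the spindle, and a checkpoint holds back the anaphase-promoting complex (APC/C) until attachment is complete. Once the APC/C is active, cyclin B and securin are degraded, separase opens the cohesin rings and the cell divides. Many of these genes are transcribed together late in the cell cycle, and ES cells, which divide rapidly, express them at high levels. Whether the knockdown alters the machinery of division is a question raised by the study's title, which names proliferation.

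In both conditions the mitotic genes were abundant. Their median level was 64.0 FPKM in NT cells and 66.3 in KD cells, against 11.2 and 11.3 FPKM over the 12330 rows that carry a gene symbol and reach 1 FPKM in either condition. In the control, 35 of the 41 members stood at or above the 75th percentile of those rows. The summed level of the members was 3141 FPKM in NT cells and 3134 in KD cells. All 41 reached 10 FPKM in both conditions, so no member was lost to a filter on low values.

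None of the 41 members was marked as changed in the authors' deposited table, where 1.15% of the 15477 tested rows were marked. By the deposited Cuffdiff p-value, unadjusted, 3 members were under 0.05, namely Cdk1, Spc25 and Pttg1, against 8.88% of all tested rows. The 1 that was lower in the KD compares with 2.78% of tested rows and the 2 that were higher with 6.1%. Differences are on the scale log2((KD FPKM + 1)/(NT FPKM + 1)), where negative values are lower in the KD. On this scale the members had a median of -0.034 with quartiles of -0.16 and 0.18. The 6889 symbol rows at 10 FPKM or more had a median of 0.0099 with quartiles of -0.16 and 0.18. Of the members 23 lay below 0 and 18 above, where 48.3% of rows at 10 FPKM or more lay below 0. One member was at or under -0.5, against 5.41% of those rows, and 2 were at or over 0.5, against 5.75%. These shares of members are near the background, and the spread of the members was about that of genes at large.

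**Figure D1:**
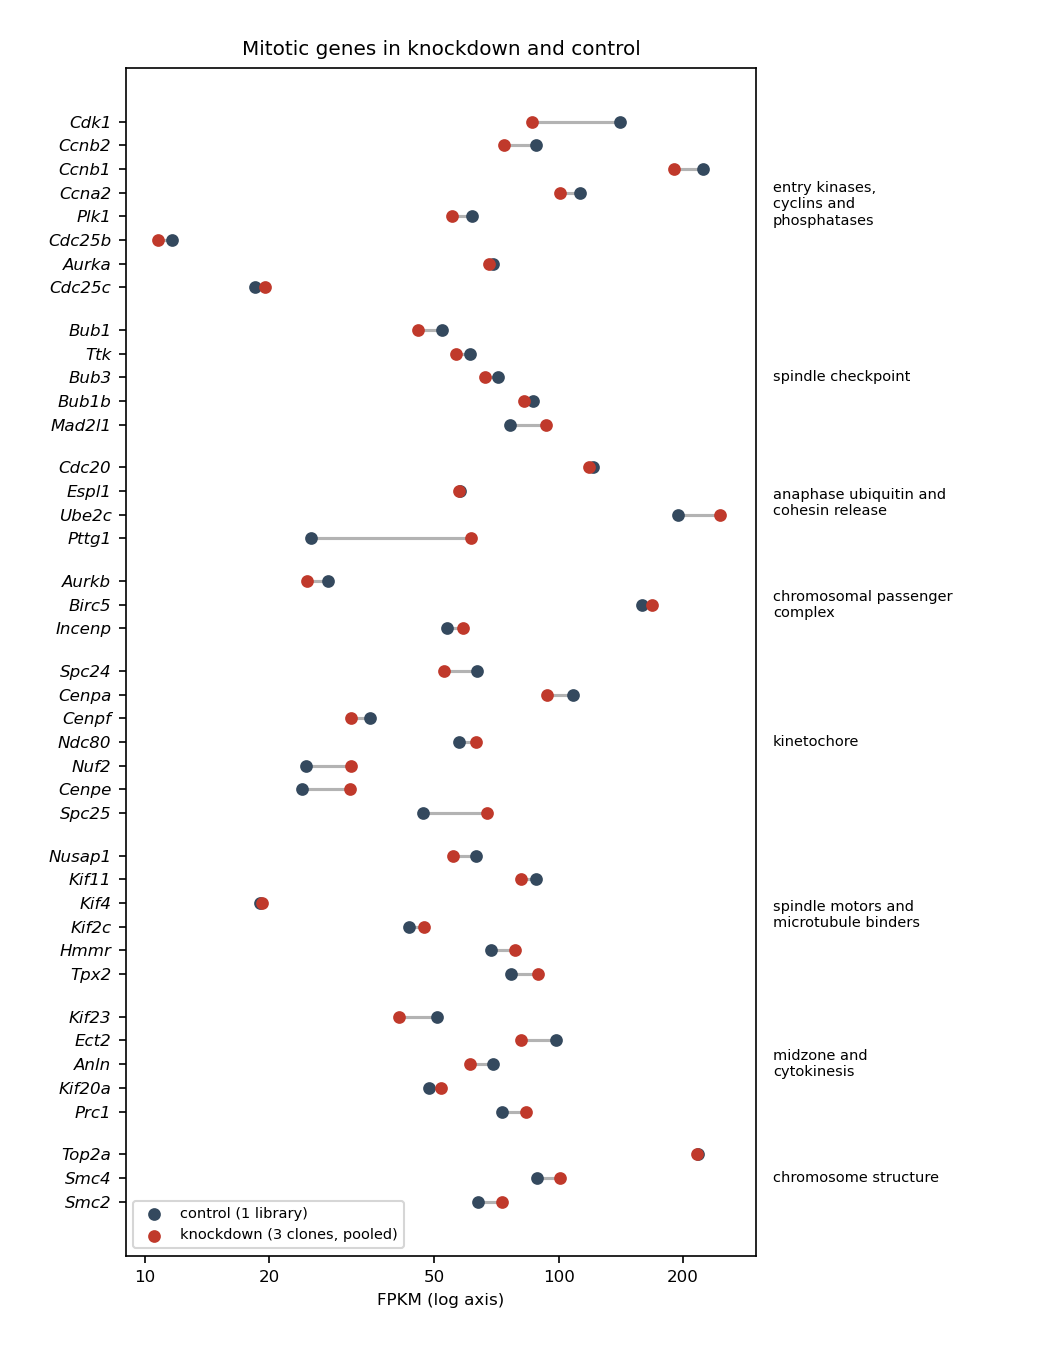
Level of each of the 41 mitotic genes in the control (dark points, 1 library) and the knockdown (red points, 3 clones pooled by the authors), in FPKM on a log axis, grouped by role. For most genes the points nearly touch, while Cdk1 lies at 140 FPKM in NT cells and 86.1 in KD cells, and Pttg1 at 25.2 and 61.2 FPKM.

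Among the kinases, cyclins and phosphatases of mitotic entry, 7 of 8 members lay below 0. Their median log2 difference was -0.16 and none was marked by the authors. Of all symbol rows at 10 FPKM or more, 48.3% lay below 0, which is the background for each group of members described here. Only 1 of these 8 genes, Cdk1, had an unadjusted Cuffdiff p under 0.05. Cdk1, the kinase that drives entry, was at 140 FPKM in NT cells and 86.1 in KD cells. Its log2 difference of -0.70 was the lowest of all members, and the authors' deposited table gives it a Cuffdiff p of 0.00185 and a q of 0.106. Its cyclin partners were listed lower by smaller amounts. Ccnb1, cyclin B1, was at 223 FPKM in NT cells and 190 in KD cells. Ccnb2, cyclin B2, was at 88.1 and 73.9 FPKM, in the same order. Ccna2, cyclin A2, which acts in S phase and early mitosis, was at 113 FPKM in NT cells and 101 in KD cells. As FPKM is scaled by length, levels can be set side by side between genes. The 3 cyclins summed to 3.02 times the level of Cdk1 in the control and 4.24 times in the KD.

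The other entry genes differed less between the conditions. Plk1, the polo-like kinase that promotes entry and spindle assembly, was at 61.8 FPKM in NT cells and 55.4 in KD cells. Aurka, the centrosomal Aurora kinase, was at 69.5 and 67.8 FPKM. The phosphatase genes among the members, whose products remove inhibitory phosphates from CDK1, were low for this set. Cdc25b was at 11.6 FPKM in NT cells and 10.7 in KD cells, and Cdc25c was at 18.5 and 19.5 FPKM. Cdc25c was the one entry gene listed higher in the KD.

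The spindle checkpoint genes had a median log2 difference of -0.11, with 4 of 5 below 0, against 48.3% of rows at 10 FPKM or more. None of the 5 had an unadjusted Cuffdiff p under 0.05. Bub1, a kinetochore kinase, was at 52.2 FPKM in NT cells and 45.7 in KD cells. Ttk, the kinase MPS1 that starts checkpoint signalling, was at 61.1 and 56.4 FPKM. Bub3, which carries BUB1 and BUBR1 to the kinetochore, was at 71.5 FPKM in NT cells and 66.3 in KD cells, and Bub1b, which encodes BUBR1, was at 86.7 and 82.6 FPKM. Mad2l1, which encodes the MAD2 protein that restrains CDC20, was the exception at 76.3 FPKM in NT cells and 93.4 in KD cells. A second row with the symbol Mad2l1 was at 3.81 FPKM in NT cells and 5.27 in KD cells and was not used.

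The anaphase genes held the member that differed most. Pttg1 encodes securin, the inhibitor of separase that the APC/C removes at anaphase. It was at 25.2 FPKM in NT cells and 61.2 in KD cells, a ratio of 2.43. Its log2 difference of 1.25 carries a Cuffdiff p of 0.0016 and a q of 0.096, by the authors' deposited table, and did not pass. Ube2c, the ubiquitin-conjugating enzyme of the APC/C and the most abundant member in the KD, was at 194 FPKM in NT cells and 246 in KD cells. Cdc20, the APC/C activator, was at 121 and 119 FPKM. Espl1, which encodes separase, was at 57.9 FPKM in NT cells and 57.6 in KD cells, in a row that also carries Mfsd5, so the share of each gene in it is uncertain.

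The chromosomal passenger complex corrects faulty attachments. Birc5, survivin, was its most abundant member, at 159 FPKM in NT cells and 168 in KD cells. Incenp, the scaffold, was at 53.8 and 58.6 FPKM. Aurkb, the kinase of the complex, was lower in level than its partners, at 27.7 FPKM in NT cells and 24.6 in KD cells. The log2 differences of the 3 genes ran from -0.16 to 0.12.

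Kinetochore genes spread to both sides of 0, with 3 of 7 below it and a median of 0.13. The NDC80 complex, which binds microtubule ends, is made of the products of Ndc80, Nuf2, Spc24 and Spc25. Spc25 was at 47.1 FPKM in NT cells and 67.3 in KD cells, with a log2 difference of 0.51; the authors' deposited table gives a Cuffdiff p of 0.0437 and a q of 0.531. Its direct partner Spc24 was listed in the opposite direction, at 63.6 FPKM in NT cells and 52.8 in KD cells. The level of Spc25 was therefore 0.740 of that of Spc24 in the control and 1.27 times it in the KD. Ndc80 was at 57.6 and 63.3 FPKM, and Nuf2 at 24.5 FPKM in NT cells and 31.4 in KD cells. Cenpe, a kinetochore motor, was at 23.9 and 31.4 FPKM with a Cuffdiff p of 0.0867 by the authors' deposited table, the lowest among the members that did not reach 0.05. Cenpa, the histone variant that marks the centromere, was at 109 FPKM in NT cells and 93.6 in KD cells, and Cenpf, a large protein of the outer kinetochore, at 34.9 and 31.4 FPKM.

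Spindle motors and microtubule binders had a median log2 difference of 0.068 and stayed between -0.18 and 0.22. Tpx2, which activates Aurora A on the spindle, was at 76.8 FPKM in NT cells and 89.4 in KD cells. Kif11, the motor that pushes spindle poles apart, was at 88.0 and 81.3 FPKM. Hmmr, a spindle pole protein, was at 68.8 FPKM in NT cells and 78.4 in KD cells, and Nusap1, a bundler of spindle microtubules, at 63.1 and 55.6 FPKM. Kif2c, which shortens microtubules at centromeres, was at 43.4 and 47.1 FPKM. Kif4, a chromosome-bound motor, was at 19.0 FPKM in NT cells and 19.2 in KD cells.

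Of the 5 midzone and cytokinesis genes 3 lay below 0. Kif23, a subunit of centralspindlin, was at 50.8 FPKM in NT cells and 41.2 in KD cells, and Ect2, the activator of RhoA that centralspindlin recruits, was at 98.5 and 81.1 FPKM. With log2 differences of -0.29 and -0.28 they were the lowest members after Cdk1. Anln, anillin of the contractile ring, was at 69.2 FPKM in NT cells and 61.2 in KD cells. Prc1, which bundles midzone microtubules, was at 72.8 and 83.2 FPKM, and Kif20a, a midzone motor, at 48.7 and 51.8 FPKM. Among the genes of chromosome structure, Top2a, the topoisomerase that untangles sister DNA, was at 217 FPKM in NT cells and 216 in KD cells. The condensin genes Smc2 and Smc4 were at 64.0 and 88.6 FPKM in NT cells and at 72.9 and 100.5 FPKM in KD cells, so that the level of Smc4 was 1.38 times that of Smc2 in each condition.

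**Figure D2:**
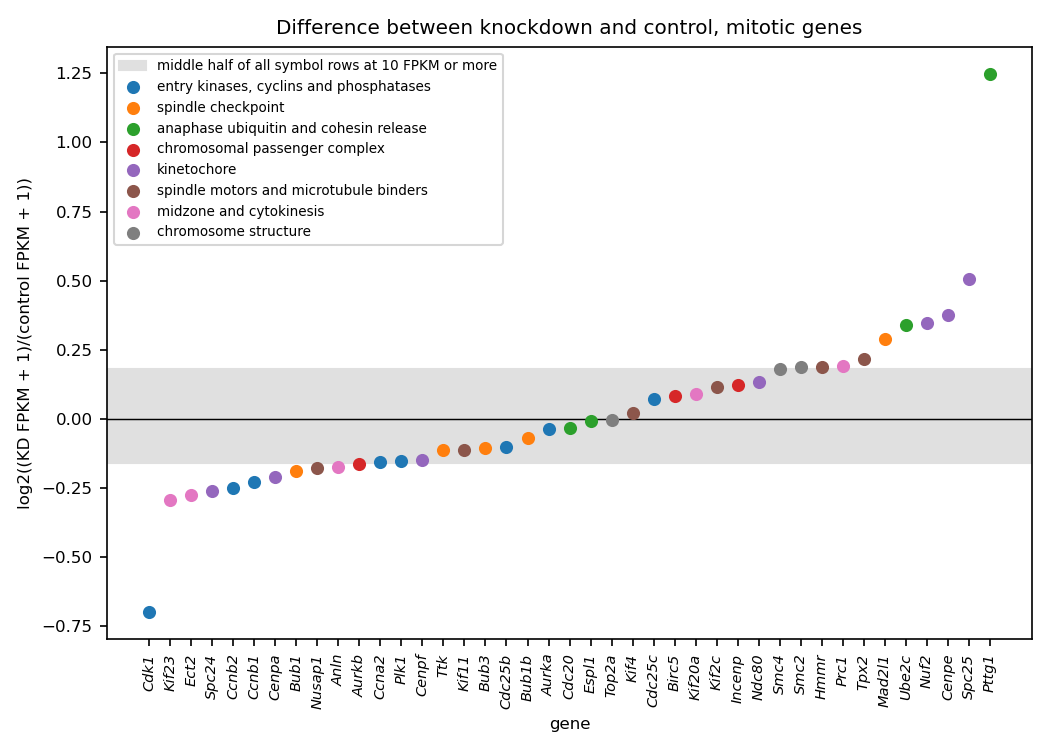
Log2 difference between knockdown and control for each of the 41 mitotic genes, in ascending order and coloured by role; the grey band is the interquartile range of all symbol rows at 10 FPKM or more, from -0.16 to 0.18. Cdk1 at -0.70 and Pttg1 at 1.25 stand apart, and 38 members lie within 0.5 of 0.

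Members within 0.5 of 0 on the log2 scale made up 92.7% of the 41, against 88.8% of symbol rows at 10 FPKM or more. Among the 6000 tested rows whose mean FPKM lay in the members' range, from 11.2 to 220 FPKM, 75 were marked (1.25%), and the smallest marked difference was 0.83 in size. Cdk1 was below that size and Pttg1 above it. Of the same 6000 rows 130 (2.17%) had a log2 difference as low as that of Cdk1, and 22 of these were marked. There were 55 rows (0.917%) as high as Pttg1, and 39 of them were marked. With 1 control library, an unusual level of Cdk1 or Pttg1 in it and an effect of the knockdown cannot be told apart, and the spread between the 3 clones was not analysed here.

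**Figure D3:**
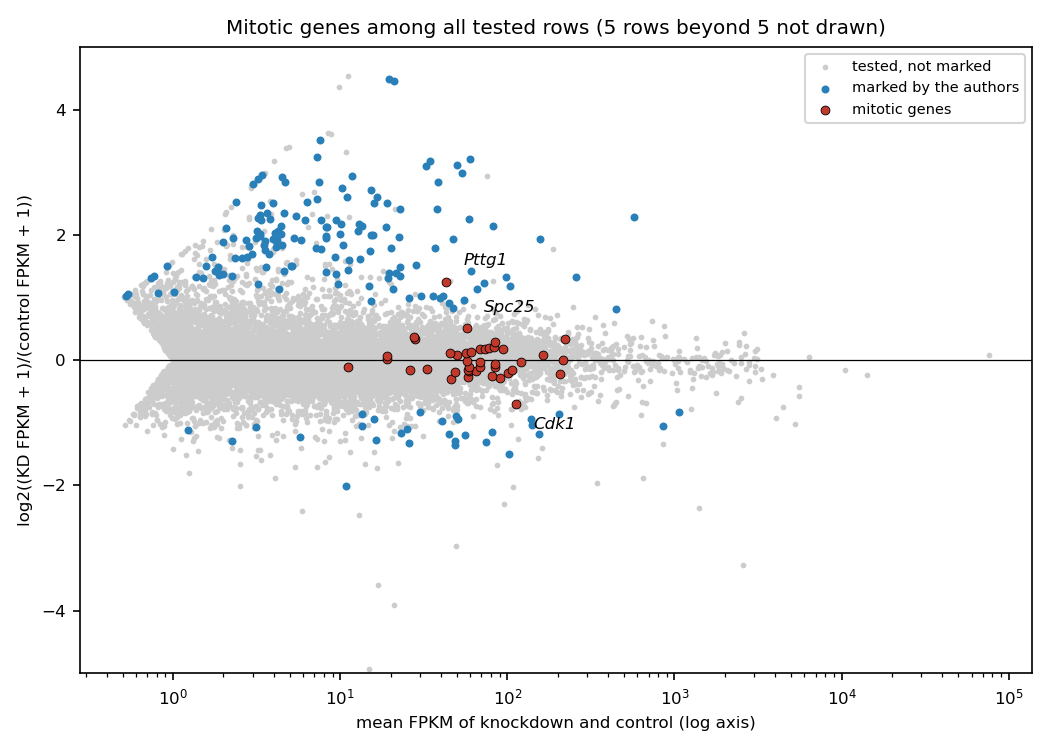
Log2 difference between knockdown and control against mean FPKM (log axis) for tested rows at 1 FPKM or more, with rows marked by the authors in blue and the 41 mitotic genes in red; 5 rows beyond 5 in size are not drawn. The mitotic genes lie within the grey cloud of unmarked rows, with Pttg1 at its upper edge.

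Cdk1 was the one member on chromosome 10 (mm9, 68799382 to 68815660), a chromosome whose genes were listed lower in the KD in general. The 598 symbol rows of chromosome 10 at 1 FPKM or more had a median log2 difference of -0.16, with quartiles of -0.48 and 0.075, the lowest median of any chromosome. Of the 357 rows of chromosome 10 at 10 FPKM or more, 68.9% lay below 0 and 38 (10.6%) were as low as Cdk1. Set against the median of its chromosome, Cdk1 was at -0.54. Of the 6 expressed rows nearest to Cdk1, 3 on each side, 5 were below 0, and they ran from -0.79 to 0.011 with a median of -0.48. The part of the chromosome in the level of Cdk1 was not tested.

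Mad2l1 was the one member on chromosome 6, whose 566 rows had a median of 0.26. Set against it, the difference of Mad2l1 went from 0.29 to 0.025. Pttg1 (chromosome 11, 43233749 to 43239750 in mm9) kept a difference of 1.21 against the chromosome 11 median of 0.038. The 6 expressed rows nearest to Pttg1 ran from -0.22 to 0.75 with a median of 0.19, and those nearest to Spc25 (chromosome 2) from -0.39 to 1.78 with a median of 0.13. Both genes were thus listed above the medians of their neighbours. Over all members, 24 were below and 17 above the median of their own chromosome.

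**Figure D4:**
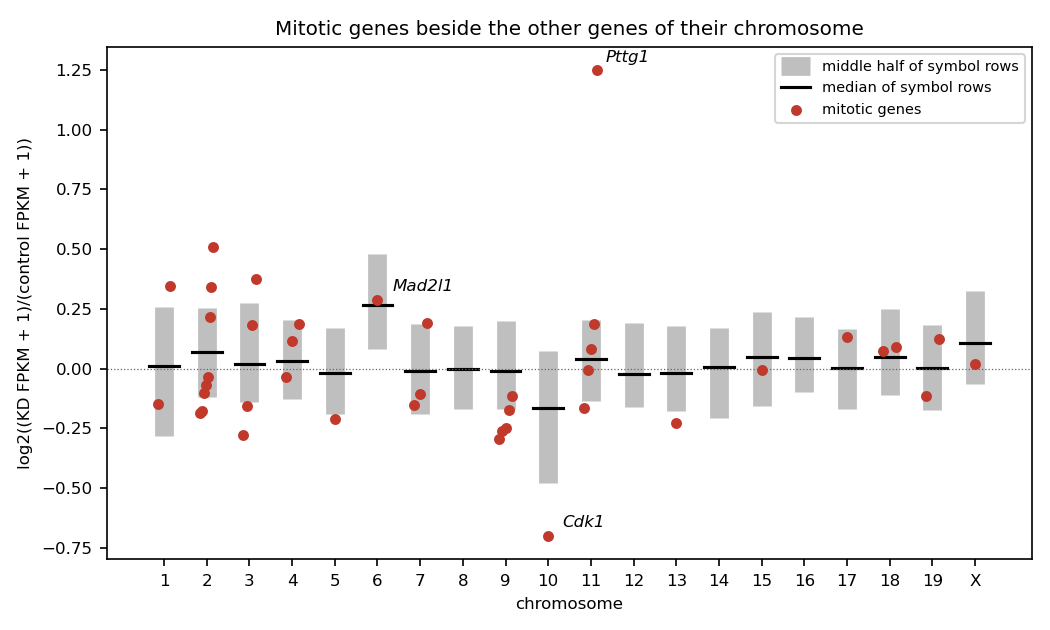
Log2 difference of each mitotic gene (red points) beside the median (black line) and interquartile range (grey bar) of all symbol rows at 1 FPKM or more on its chromosome. Cdk1 lies on chromosome 10, whose median is -0.16, Mad2l1 on chromosome 6, whose median is 0.26, and Pttg1 on chromosome 11, whose median is 0.038.

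Other genes of mitosis also had a median near 0, but more of their larger differences were on the lower side. Of 119 genes in 9 further lists 117 had a usable row, and 1 was marked as lower in the authors' deposited table and none as higher, against 0.187% and 0.963% of tested rows. Their median log2 difference was 0.0020, with 57 below 0 and 60 above. At or under -0.5 were 9 of the 117, against 5.41% of rows at 10 FPKM or more. At or over 0.5 was 1, against 5.75%. By the unadjusted deposited Cuffdiff p, 6 were under 0.05 as lower and 1 as higher, against 2.78% and 6.1% of tested rows. The marked gene was Pcnt, pericentrin of the centrosome matrix, at 38.8 FPKM in NT cells and 21.4 in KD cells. Its deposited q is 0.0242 by the authors' table. Pcnt lies on chromosome 10. The APC/C list had a median of -0.093, and its lowest gene was Fzr1, the late mitotic APC/C activator CDH1, at 81.8 FPKM in NT cells and 48.7 in KD cells, also on chromosome 10. Its highest was Cdc16, a core subunit, at 28.8 and 36.6 FPKM in a row shared with Upf3a. Cuffdiff p-values by the authors' deposited table were 0.00295 for Fzr1, with a log2 difference of -0.74, and 0.231 for Cdc16. Among regulators of these genes the median was 0.023, and the lowest was Nfyb, a subunit of the CCAAT-binding factor NF-Y, at 76.6 and 47.9 FPKM and again on chromosome 10. The highest was Nfyc, another NF-Y subunit, at 30.2 and 38.6 FPKM. By the authors' deposited table the Cuffdiff p was 0.0062 for Nfyb and 0.195 for Nfyc. The members and these 9 further lists held 7 genes of chromosome 10. Each of the 7 lay below 0, with a median of -0.67. Of all symbol rows of that chromosome at 10 FPKM or more, 68.9% lay below 0. The replication and G1 lists, described below, also held genes of chromosome 10. Their log2 differences were -0.080 for Prim1, -0.21 for Cdk2 and 0.030 for Cdk4.

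In the cohesin list, whose median was 0.017, Sgol2, a protector of centromeric cohesin, was at 52.8 FPKM in NT cells and 32.0 in KD cells. Smc1a, a core cohesin subunit, was at 52.6 and 71.7 FPKM. Sgol2 had a log2 difference of -0.70, with a Cuffdiff p of 0.0019 and a q of 0.107 by the authors' deposited table. That of Smc1a was 0.44, with a Cuffdiff p of 0.0501 by the same table. Hjurp, the chaperone that loads CENP-A, was at 157 FPKM in NT cells and 101 in KD cells, in a row it shares with A730008H23Rik and in a list of the inner centromere with a median of -0.072. In the same list Cenpb, a centromere DNA-binding protein, was listed in the opposite direction, at 17.3 FPKM in NT cells and 28.4 in KD cells, in a row shared with Spef1. Their log2 differences were -0.64 and 0.68, with Cuffdiff p-values of 0.00795 and 0.0116 by the authors' deposited table. The non-SMC condensin subunits (median -0.064), outer kinetochore genes (-0.0064), other kinesins (-0.095), other mitotic kinases and regulators (0.012) and spindle assembly genes (0.0995) held no marked gene apart from Pcnt. Nsl1, a subunit of the MIS12 complex, had the lowest difference of the further lists, -1.21, at 43.9 FPKM in NT cells and 18.4 in KD cells, with a Cuffdiff p of 0.767 by the authors' deposited table. A second row of Nsl1 at the same locus was at 27.6 and 16.1 FPKM, with a Cuffdiff p of 0.00725 by that table, so the split of reads between the rows is uncertain. Mis12 was the highest of that list, at 16.7 and 22.1 FPKM. Kif14, a kinesin of cytokinesis, was at 15.8 FPKM in NT cells and 10.5 in KD cells, with a log2 difference of -0.55 and a Cuffdiff p of 0.015 by the authors' deposited table, and Kif18b was the highest of its list at 28.4 and 32.8 FPKM. Bora, an activator of Aurora A, was at 38.8 and 25.8 FPKM, with a log2 difference of -0.57 and a Cuffdiff p of 0.193 by the authors' deposited table. At the upper end of the remaining lists, Mad1l1, the partner of MAD2, was at 16.5 and 20.7 FPKM, and Haus4, an augmin subunit, at 17.4 and 24.6 FPKM. The condensin genes Ncapg2 (13.4 and 11.9 FPKM) and Ncaph (38.2 and 42.7 FPKM) bounded their list. Foxm1, an activator of late cell-cycle genes, was at 22.3 FPKM in NT cells and 22.7 in KD cells.

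Genes of the preceding cell-cycle phases are the closest sets for comparison. The 36 DNA replication genes had a median of -0.067, with 23 below 0 and none marked. For comparison, 48.3% of symbol rows at 10 FPKM or more lay below 0, and 1.15% of tested rows were marked. By the unadjusted deposited Cuffdiff p, 2 were under 0.05 as lower and 0 as higher, against 2.78% and 6.1% of tested rows. The list ran from Pold1, a DNA polymerase subunit, at 43.1 FPKM in NT cells and 27.4 in KD cells, to Rfc3, a clamp loader subunit, at 18.4 and 21.2 FPKM. Of 10 genes of the G1 phase, 1 was marked, as higher, against 0.963% of tested rows. It was Ccnd2, cyclin D2, at a low 1.17 FPKM in NT cells and 7.12 in KD cells. Ccnd2 lies on chromosome 6, whose median was 0.26. Ccnd3, cyclin D3, was far more abundant and listed in the opposite direction, at 114 FPKM in NT cells and 61.5 in KD cells, with a log2 difference of -0.88 and a Cuffdiff p of 0.00395 by the authors' deposited table. Ccnd1, cyclin D1, was at 20.9 and 36.7 FPKM, with a log2 difference of 0.78 and a Cuffdiff p of 0.0025 by the same table. The median of that list was 0.021. A difference between these sets and the mitotic genes was not tested, as each condition has 1 value.

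The promoters of the mitotic genes share letters that the choice of members did not use. Many late cell-cycle promoters carry a cell-cycle homology region (CHR), the binding motif of the MuvB complexes, together with CCAAT boxes bound by NF-Y. RefSeq promoter windows of GRCm38.p6, from 250 bases before to 50 bases after the start, were found for 33 of the 41 members, in 36 windows. TTTGAA or TTCGAA on either strand was present in 29 of 36 windows (80.6%), against 19.2% of all 32851 windows and 14.3% of windows of symbols at 10 FPKM or more. Within 50 bases of the start it was present in 27 of the members' 36 windows and in 5.31% of all windows. CCAAT on either strand was present in 77.8% of the members' windows and 37.4% of all, and both motifs in 72.2% and 7.52%. The motifs were searched separately and can share a letter where their matches meet, and TTCGAA reads the same on both strands. In the further mitosis lists 35.1% of 111 windows held TTTGAA or TTCGAA, and in the replication list 16.7% of 36.

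The 130 bases before the start are shown for 6 members, 5′ to 3′ on the gene's strand, with both motifs in capitals (TTCAAA and ATTGG are the motifs read on the other strand). Cdk1 (chr10:69352913-69353042, minus strand) was the lowest member and has a CHR match that begins 15 bases before the start. Cdc20 (chr4:118437344-118437473, minus strand), Kif11 (chr19:37376252-37376381, plus strand) and Top2a (chr11:99024190-99024319, minus strand) differed little between the conditions, and each also has a CHR match near the start and a CCAAT box before it. Spc25 (chr2:69206214-69206343, minus strand) has its CCAAT boxes here and its TTTGAA after the start, and Nuf2 (chr1:169531465-169531594, minus strand), listed higher in the KD, has neither motif. Positions are in GRCm38.p6 and are counted from the RefSeq start. Of the 130 bases shown, 26 of Cdk1 and 9 of Cdc20 are annotated as exonic. The starts used for Cdk1, Cdc20, Kif11 and Spc25 are not among GENCODE starts, so matches near them may not lie before transcription begins.
Cdk1: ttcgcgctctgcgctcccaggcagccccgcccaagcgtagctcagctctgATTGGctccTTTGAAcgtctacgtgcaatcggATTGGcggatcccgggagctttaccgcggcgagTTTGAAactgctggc
Cdc20: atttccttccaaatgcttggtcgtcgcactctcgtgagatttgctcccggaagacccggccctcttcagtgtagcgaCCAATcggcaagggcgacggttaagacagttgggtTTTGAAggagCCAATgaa
Kif11: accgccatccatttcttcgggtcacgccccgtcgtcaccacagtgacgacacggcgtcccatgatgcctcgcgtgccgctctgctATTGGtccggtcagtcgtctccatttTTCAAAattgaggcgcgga
Top2a: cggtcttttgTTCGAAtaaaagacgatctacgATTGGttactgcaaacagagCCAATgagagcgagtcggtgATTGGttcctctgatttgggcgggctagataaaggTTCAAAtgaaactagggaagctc
Spc25: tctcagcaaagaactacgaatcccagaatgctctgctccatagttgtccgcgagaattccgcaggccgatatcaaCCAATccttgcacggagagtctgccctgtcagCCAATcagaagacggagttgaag
Nuf2: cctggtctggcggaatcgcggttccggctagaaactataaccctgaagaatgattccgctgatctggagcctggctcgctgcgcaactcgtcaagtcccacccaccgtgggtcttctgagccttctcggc

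The 26 members with TTTGAA or TTCGAA in a window had a median log2 difference of -0.084, with 18 of 26 below 0. The 7 without it were Ccnb1, Nusap1, Birc5, Mad2l1, Nuf2, Cenpe and Pttg1, with a median of 0.29 and 2 of 7 below 0. That median is the value of Mad2l1, which went to 0.025 when set against the median of chromosome 6. The gap between the classes thus depends in part on 1 gene of that chromosome. Without Pttg1 the remaining 6 had a median of 0.19. The ranges overlapped, from -0.70 to 0.51 with the motif and from -0.23 to 1.25 without it. Over symbol rows at 10 FPKM or more the medians were 0.0083 for 853 rows with the motif and 0.012 for 4239 rows without it, so no such separation was seen in genes at large. Divided by CCAAT instead, the 25 members with it had a median of -0.10, with 18 below 0. The 8 members without CCAAT had a median of 0.12, with 2 below 0. The divisions class most members alike, as 23 held both motifs. They therefore cannot tell whether the gap goes with TTTGAA or TTCGAA or with CCAAT. These divisions were chosen after the values were seen and were not tested. A match describes letters in the window and not binding.

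**Figure D5:**
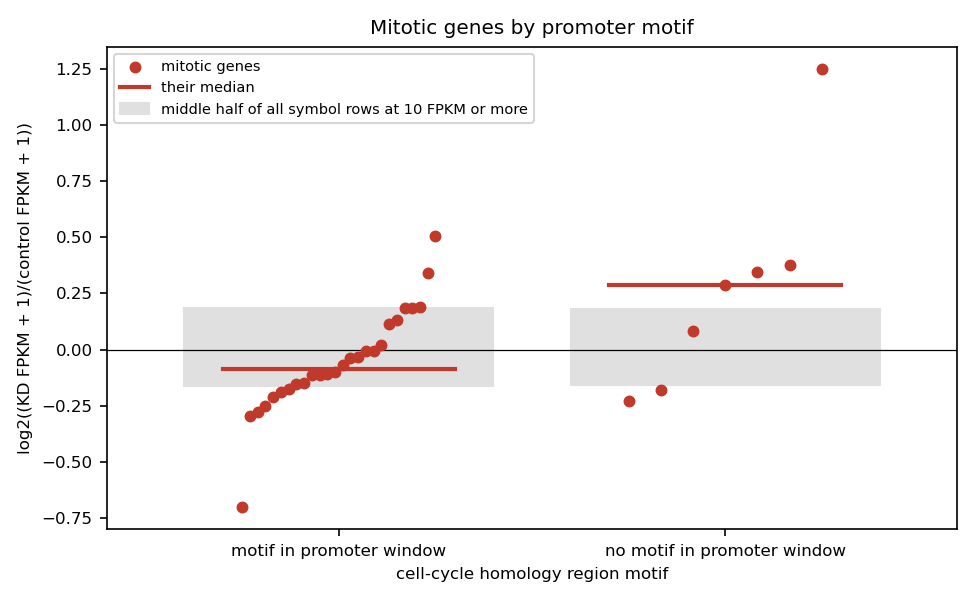
Log2 difference of the 33 mitotic genes with a promoter window, by whether the window holds the cell-cycle homology region motif; points are ordered by value from left to right within each column, red lines are medians (-0.084 and 0.29) and grey boxes are the interquartile range of symbol rows at 10 FPKM or more in each class. The columns overlap, with Cdk1 lowest on the left and Pttg1 highest on the right.

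Markers of primitive endoderm differed between the conditions. The ES cell markers Pou5f1, Sox2, Nanog, Zfp42, Esrrb and Dppa5a were all at 211 FPKM or more in both conditions, with none marked. Over all tested rows 1.15% were marked, and 0.963% were marked as higher. All 8 primitive endoderm markers (Gata6, Gata4, Sox17, Sox7, Pdgfra, Lama1, Dab2 and Foxa2) were higher in the KD, 7 of them marked. Their summed level was 32.3 FPKM in NT cells and 176 in KD cells. In NT cells 3 of the 8 were below 1 FPKM, near the floor. Of the 10 feeder fibroblast markers (Col1a1, Col1a2, Col3a1, Col6a1, Thy1, Pdgfrb, Postn, Twist1, Lum and Dcn) 8 were higher, 1 lower and none marked. Their summed level was 11.4 FPKM in NT cells and 21.96 in KD cells, and Lum was listed at 0 in both. Of these 10 markers 6 were below 1 FPKM in NT cells and 5 in KD cells, so many of these differences are near the floor. Of all symbol rows at 1 FPKM or more in either condition, 46.9% lay below 0. In bulk RNA, fewer dividing cells and less RNA per cell cannot be told apart, and the part of these markers in the levels of the mitotic genes was not tested. Of 5 CDK inhibitor genes, whose products slow the cell cycle, none was marked. Cdkn1a, which encodes p21, was at 27.8 FPKM in NT cells and 40.7 in KD cells, Cdkn2a at 5.91 and 12.3 FPKM, Cdkn2b at 0.602 and 1.64 FPKM, Cdkn1c at 10.4 and 14.6 FPKM, and Cdkn1b, which encodes p27, at 71.5 FPKM in NT cells and 55.9 in KD cells.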

How the data were processed

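The 4 libraries, 1 NT and 3 KD, were made by the authors from total RNA extracted with TRIzol, per the labels' protocols. The submitters' processing notes name TopHat, Cufflinks and Cuffdiff with build mm9; the sources used here do not give versions, options, annotation or scaling. Per the file headers, the authors' table holds an FPKM value of each gene under the names treated and control. Treated was taken as the pooled KD, the only other condition in the labels. The deposited p-value, q-value and mark are the authors' own and contain no measured spread between control cultures.

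From these values, log2((KD FPKM + 1)/(NT FPKM + 1)) was computed with Python 3.11.15 and pandas 2.3.3. A member symbol with several rows kept the row with the highest mean. No test across samples was run, because each condition has 1 value. Summaries over symbol rows used those at 1 FPKM or more in either condition, and those at 10 FPKM or more. Library depth is unknown. Low values of control FPKM multiplied by transcript kb clustered at 0.033, which, if it is the worth of 1 fragment, puts Pttg1, the lowest of 40 members estimated, at about 364 fragments by its shortest coding GENCODE transcript (counting error only). These estimates depend on the length of the transcript chosen as well as on the level. As the shortest coding transcript was used, they are too low for a gene whose reads come from longer transcripts. Cenpf, at 34.9 FPKM in NT cells, was put at about 379 fragments, and Cdc25b, at 11.6 FPKM, at about 1055. Their order is thus not an order of level. Promoter motifs were searched in RefSeq windows of GRCm38.p6, and no coordinate was moved between builds.

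The members and lists were chosen with earlier results of these data known. Named genes were all members, the marker genes, and genes lowest, highest or marked in a further list among those at 5 FPKM or more. Foxm1, Ccnd1, Prim1, Cdk2, Cdk4, the neighbouring-row summaries and the divisions by promoter motif were chosen after values were seen. Kif20b, whose row failed in the authors' processing, and Mlf1ip, which matched no row, were left out. The summary code was tested on simulated data. Alternatives were another pseudocount and none, other FPKM minimums, centring, summed rows, left-out chromosomes and chromosome medians.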

Additional observations from a re-analysis of the deposited data

How the results depend on the processing

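Over 10 alternatives the median log2 difference of the members ran from -0.085 to -0.021, and the number below 0 from 22 to 24. The number of members at or over 0.5 was 2 and became 1 when values were centred on the median of all symbol rows or set against the median of each gene's chromosome, since Spc25 then dropped under 0.5. The number at or under -0.5 was 1, Cdk1, and became 0 with chromosome 10 left out, or with chromosomes 6 and 10 left out, an alternative added after the data were seen, because Cdk1 was then not counted. Of 205 alternative values of single members 202 stayed within 0.1 of the reported value; against their chromosome medians Cdk1 was at -0.54, Mad2l1 at 0.025 and Kif4 at -0.085. Of 110 alternative medians of the 11 lists, replication and G1 included, 109 stayed within 0.1. That of the G1 list was -0.088 with a minimum of 10 FPKM. No paired analysis was possible because the clones were pooled in the deposited values and the control carries no replicate number. For the same reason no clone could be left out in turn.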
